A study of Mus musculus with 29 samples.

Results

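The genes of retinoic acid synthesis and its receptors were followed in mouse alveolar septa from E16.5 to P28. The 9 genes were taken by symbol from the 22779 gene IDs of the expression matrix: the retinal dehydrogenases Aldh1a1, Aldh1a2 and Aldh1a3, the retinoic acid receptors Rara, Rarb and Rarg, and Cyp26b1, Dhrs3 and Lrat, whose products remove retinoic acid or its precursors. All 9 were found, each on a single line of the matrix, and all 9 passed the filter on low values described below. The series holds 29 RNA sequencing libraries of alveolar septa, obtained by laser capture microdissection of frozen lung sections from wild type C57BL/6 mice, with 2 animals at each of 14 ages and 1 animal at P28. The ages were placed in 4 groups: prenatal (E16.5 and E18.5, n = 4), postnatal saccular (n = 8 animals of 4 ages from P0.5 through P2.5), early alveolar (n = 8 animals of P4, P5, P7 and P10) and late alveolar (n = 9 animals of P13.5, P15, P19 and P23, and the P28 animal). No animal received a treatment, and the large vessels and bronchi were avoided when the septa were cut.

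Retinoic acid is the active form of vitamin A. Retinol is oxidised to retinal by retinol dehydrogenases such as Rdh10, and retinal is oxidised irreversibly to retinoic acid by the Aldh1a enzymes. Retinoic acid then binds nuclear receptors, the RARs, which pair with RXRs on DNA at direct repeats of a short half-site, hold corepressors without ligand and recruit coactivators with it. Cyp26 enzymes oxidise retinoic acid to inactive forms, Dhrs3 reduces retinal back to retinol, and Lrat esterifies retinol for storage. In the lung, retinyl esters are held in lipid-laden interstitial fibroblasts, and retinoid signalling takes part in branching before birth and in the growth of alveolar septa after it.

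The promoter of Rarb is shown because the gene is a textbook direct target of retinoic acid, through a repeat that lies just before its start. The RefSeq tables (GRCm38.p6) held promoter windows, 250 bases before to 50 bases after a start, for 8 of the 9 genes, 15 windows in all. Each was searched on both strands for direct repeats of a half-site with 5, 2 or 1 bases between the copies. Each copy could be the classical AGGTCA or the variant AGTTCA, or either of these with its first base changed to give GGGTCA or, for the variant, GGTTCA, in any combination, and windows with repeats of more than 1 kind count under each. A repeat was found in 1 of the 15 windows, that of Rarb at chr14:16575427-16575726 on the minus strand, a start within the span of the gene, where the repeat lies from base -53 to base -37 relative to the start. The window is printed 5′ to 3′ along the gene, with the repeat and its 5-base gap in capitals.
Rarb promoter: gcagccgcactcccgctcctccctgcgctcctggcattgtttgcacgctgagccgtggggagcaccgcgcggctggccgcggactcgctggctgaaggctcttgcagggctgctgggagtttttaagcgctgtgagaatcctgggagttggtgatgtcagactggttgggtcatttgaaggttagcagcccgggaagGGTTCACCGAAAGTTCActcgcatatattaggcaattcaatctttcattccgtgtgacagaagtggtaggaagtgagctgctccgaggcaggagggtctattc
Of 32851 windows of this length in the tables, 32 (0.097%) hold a repeat with a gap of 5 bases, 88 (0.268%) with a gap of 2 and 73 (0.222%) with a gap of 1. The match describes the sequence and was not related to binding, which was not measured here.

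Values are FPKM, fragments scaled by transcript length and by all mapped fragments, so levels of different genes can be set side by side. Read depth is not known. The FPKM of a library summed to between 318176 and 457706, and between 10114 and 13059 genes reached an FPKM of 1. Animals of the same age correlated with r between 0.86 and 0.966 across genes, with a median of 0.945, against a median of 0.915 between libraries of different ages. The sex label went against the sex-linked transcripts in 14 of the 29 libraries, and sex was not used in any fit. Whether the sex labels or the library names are in error was not tested, and an error in the names would also change the age to which a value belongs. Of 8623 well expressed protein-coding genes, the matrix gives 416 as 0 in P10 pup a, 578 in P19 pup d and 242 in P19 pup f, and a 0 in these libraries may therefore be a failed estimate. The marker genes of type 2 cells, type 1 cells and endothelium were found in every group, as was airway and heart muscle RNA. The summed FPKM of 5 heart muscle markers was 995 and 2068 in the E16.5 libraries and 31.6 and 102 in those of E18.5.

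Groups were compared in 1 limma fit of log2(FPKM + 1) over all 29 libraries. The test covered 14616 genes that reached an FPKM of 1 in 4 or more libraries, and the threshold for a call was an adjusted p of 0.05 (Benjamini-Hochberg). All adjusted p values below come from limma, and differences are on the log2(FPKM + 1) scale, which understates the change of low genes. The libraries hold bulk RNA, in which fewer cells of a type and less RNA per cell cannot be told apart. Whether the animals of an age came from separate litters is not given in the labels, so the p values concern these animals only. In the fit of 4 groups they measure the spread between libraries of a group, which includes differences between its ages.

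**Figure D1:**
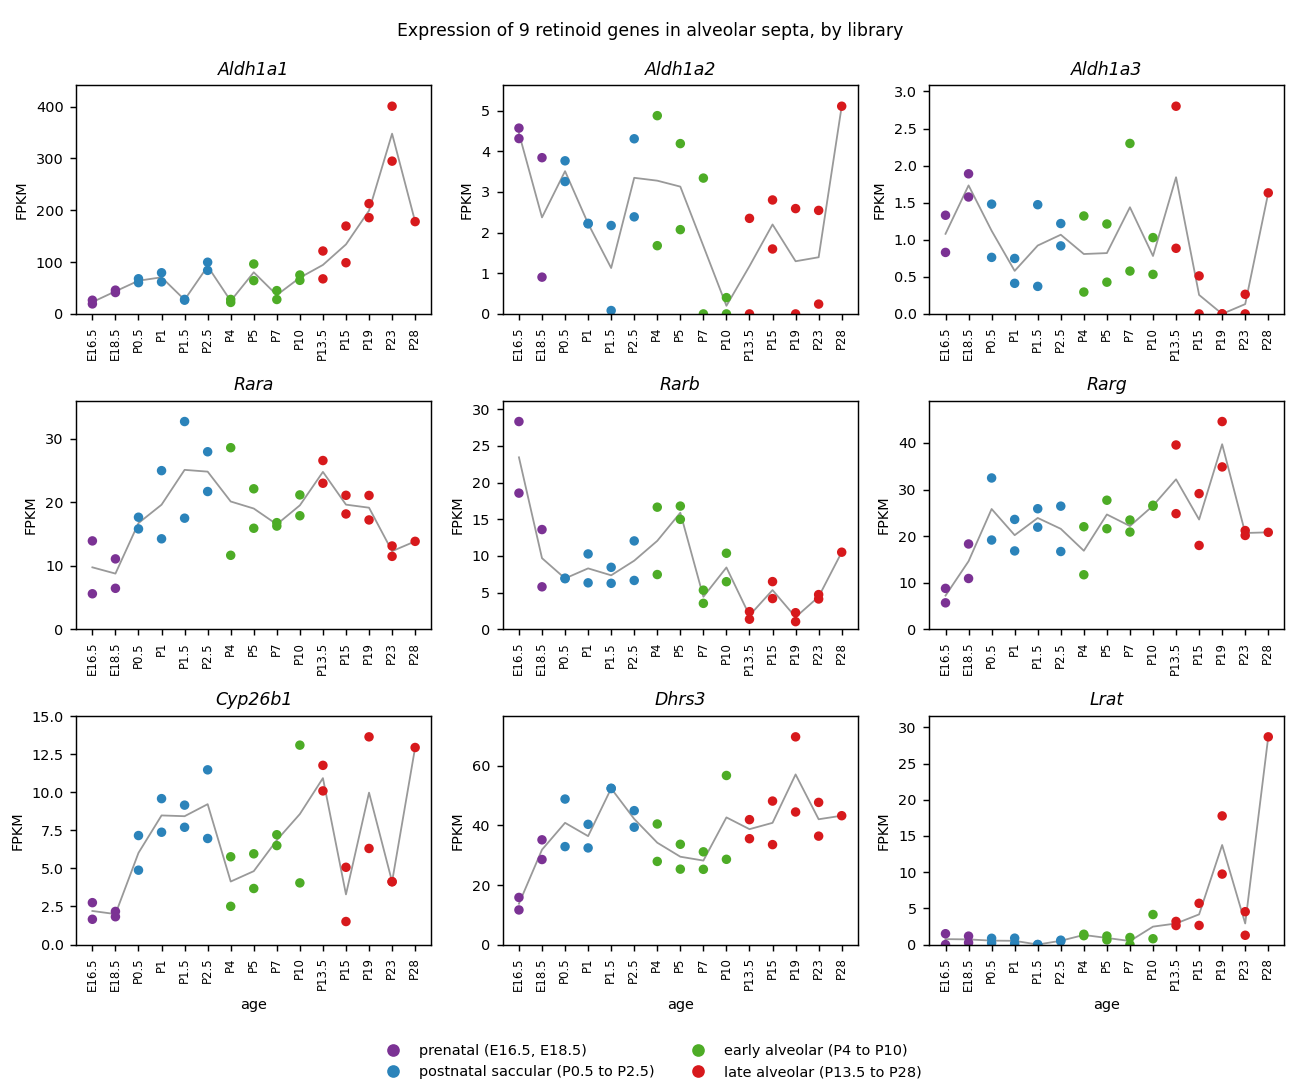
FPKM of the 9 genes (vertical axes, each from 0) at the 15 ages (horizontal axes, in order and not to scale). Each point is 1 library, coloured by group, and the grey line joins the means of each age: Aldh1a1 reaches 401 at P23, Rarb is highest at E16.5 with 18.6 and 28.3, and Lrat reaches 28.7 at P28.

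Among the synthesis enzymes, Aldh1a1 rose between the early and the late alveolar group, and Aldh1a2 and Aldh1a3 remained low at all ages. Aldh1a1, an enzyme that oxidises retinal to retinoic acid and also detoxifies other aldehydes, lies on chromosome 19 (GRCm38, 20492583 to 20643463, plus strand). Its prenatal levels were 19.3 and 26.4 FPKM at E16.5 and 45.9 and 41.3 FPKM at E18.5. The postnatal saccular libraries ranged from 26.5 to 99.7 FPKM with a median of 64.8, and the early alveolar libraries from 22.2 to 96.3 FPKM with a median of 54.6. The late alveolar libraries ranged from 67.7 to 401 FPKM with a median of 178. Of these 9 late libraries, 8 lay above the highest early alveolar library, the exception being P13.5 pup d. The mean rose 3.63-fold, from 52.9 ± 26.5 FPKM (SD, n = 8) to 192 ± 103 FPKM (SD, n = 9), a log2 difference of 1.83 (SE 0.33, adjusted p = 3.4e-04).

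The order of the ages shows how uneven the course of Aldh1a1 was in the first week. P23 stood highest with 295 and 401 FPKM, followed by P19 with 186 and 213, the single P28 library with 178, and P15 with 98.8 and 169. E16.5 stood lowest, and P4 (28.0 and 22.2 FPKM), P1.5 (26.5 and 28.0) and P7 (45.0 and 27.8) came next above it, lower than the ages on either side of them. Of the 14 gaps between neighbours in this order, 5 were wider than the SD between animals of the same age, which was 0.32 on the log2 scale. From the prenatal to the postnatal saccular group the log2 difference of Aldh1a1 was 0.86 (SE 0.41), with an adjusted p of 0.163. In a fit of 15 age groups, whose residual spread is that between animals of the same age, the same difference had an adjusted p of 0.00318.

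The summed FPKM of the 4 club cell markers, Scgb1a1, Scgb3a2, Cyp2f2 and Scgb3a1, varied with Aldh1a1. It ranged from 174 to 1220 in the prenatal libraries, from 613 to 4980 in the postnatal saccular, from 958 to 5779 in the early alveolar and from 898 to 4949 in the late alveolar libraries. Scgb1a1, the secretory protein that marks club cells, was above 0 in every library and made up most of the sum after birth, with group means of 184, 2145, 2469 and 3032 FPKM in order of age. Scgb3a2 went the other way, with group medians of 451, 315, 187 and 70.4 FPKM. The medians of Scgb3a1 were 7.10, 21.8, 1.07 and 0 FPKM, and those of Cyp2f2 were 18.1, 69.7, 41.3 and 66.7 FPKM. Across the 29 libraries the correlation of Aldh1a1 with this sum was r = 0.69 on log2 scales, and both were low at P1.5, P4 and P7. With the sum of 5 ciliated cell markers it was r = 0.64, with that of 8 endothelial markers 0.62 and with that of 8 type 2 cell markers 0.44. The P19 libraries had club cell sums of 1153 and 2055, within the range of the early alveolar group, with Aldh1a1 at 186 and 213 FPKM, above every library of that group. Both are rich in zeros, and the ciliated sum of P19 pup f was 193, above the highest early alveolar library, at 113. The part of airway cells or of the other cell types in the levels of Aldh1a1 was not tested.

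**Figure D2:**
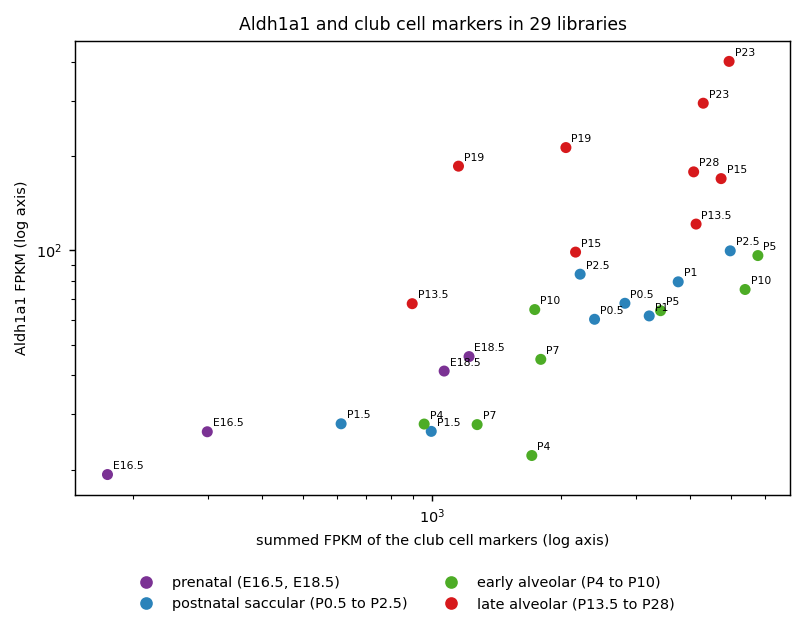
Aldh1a1 FPKM (vertical log axis) against the summed FPKM of 4 club cell markers (horizontal log axis) in the 29 libraries, each point labelled by age and coloured by group. The correlation on log2 scales is r = 0.69, and the P19 libraries, both rich in zeros, lie at 186 and 213 FPKM of Aldh1a1 and at sums of 1153 and 2055.

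Reads of Aldh1a1 could in part be assigned to Aldh1a7, a near copy in the mouse: 151 of the 2309 windows of 50 bases in Aldh1a1 transcripts (6.54%) also occur in Aldh1a7, and none occur in Aldh1a2 or Aldh1a3. Aldh1a7 was highest before birth, with means of 84.6 ± 12.8 FPKM (SD, n = 4) in the prenatal, 47.4 ± 11.4 (n = 8) in the postnatal saccular, 27.3 ± 10.5 (n = 8) in the early alveolar and 38.4 ± 15.4 (n = 9) in the late alveolar group. It fell between the prenatal and the postnatal saccular group by 0.85 on the log2 scale (SE 0.29, adjusted p = 0.0425).

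Aldh1a2, the main retinal dehydrogenase of early embryos and of mesothelium, lies on chromosome 9 (71215789 to 71296243, plus strand). Its prenatal levels were 4.57 and 4.31 FPKM at E16.5 and 0.90 and 3.84 FPKM at E18.5. Later values ran from 0.083 to 4.31 FPKM in the postnatal saccular, from 0 to 4.88 in the early alveolar and from 0 to 5.11 in the late alveolar libraries, so the groups overlapped. It is listed at 0 in P7 pup c, P10 pup a, P13.5 pup c and P19 pup d, of which P10 pup a and P19 pup d are rich in zeros. P7 pup c and P13.5 pup c had 102 and 112 of the 8623 well expressed genes at 0, the most outside the 3 libraries rich in zeros. None of the 3 adjacent comparisons called it (log2 differences of -0.31, -0.39 and -0.03), and the animals of 1 age differed by an SD of 0.85 on the log2 scale, the widest of the 9 genes. The 6 mesothelial markers summed to 97.5 to 249 FPKM in the prenatal and 24.4 to 81.0 FPKM in the late alveolar libraries. Krt19 carried most of that difference, with means of 103 ± 40.5 FPKM (SD, n = 4) and 25.5 ± 14.4 FPKM (n = 9). The means of Msln (49.8 to 5.83 FPKM), Wt1 (1.65 to 0.51), Upk3b (3.97 to 2.85) and Lrrn4 (3.17 to 1.42) were also lower in the late group. Upk1b of the same list was higher there, at 19.7 ± 7.04 FPKM (n = 9) against 8.90 ± 1.97 FPKM (n = 4). The part of mesothelium in the levels of Aldh1a2 was not tested.

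Aldh1a3, the third retinal dehydrogenase, known from the eye and the nasal region of the embryo, lies on chromosome 7 (66390892 to 66427477, minus strand). Its prenatal levels were 0.83 and 1.33 FPKM at E16.5 and 1.58 and 1.89 FPKM at E18.5, and no later library exceeded the 2.80 FPKM of P13.5 pup c. It is listed at 0 in 4 late alveolar libraries, P15 pup e, both P19 pups and P23 pup f. None of the comparisons called it.

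Aldh1a1 made up most of the transcript of the 3 enzymes in each of the 29 libraries. Its share of their summed FPKM averaged 85.8% ± 7.22 (SD, n = 4) in the prenatal group and 94.5% ± 3.07 (n = 8) in the postnatal saccular group. In the early alveolar group it was 92.8% ± 5.47 (n = 8), and every late alveolar library held at least 95.4%. The share of Aldh1a2 was largest prenatally, at 10.5% ± 7.13 (SD, n = 4). Against the 14593 tested genes with a symbol, 13.9% had a higher mean FPKM than Aldh1a1 in the prenatal group and 1.06% in the late alveolar group.

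Among the receptors, Rara and Rarg rose from the prenatal to the postnatal saccular group, and Rarb fell between the early and late alveolar groups. Rara, the most widely expressed of the family, lies on chromosome 11 (98927800 to 98974942, plus strand). Its prenatal levels were 5.58 and 13.9 FPKM at E16.5 and 6.44 and 11.1 FPKM at E18.5. The postnatal saccular libraries ranged from 14.2 to 32.7 FPKM with a median of 19.7, so that all 8 lay above all 4 prenatal libraries. The mean rose 2.33-fold, from 9.25 ± 3.93 FPKM (SD, n = 4) to 21.6 ± 6.50 FPKM (SD, n = 8), a log2 difference of 1.17 (SE 0.25, adjusted p = 0.00163). With E18.5 as the only prenatal age, the difference was 1.20 with an adjusted p of 0.0257. Afterwards the level of Rara held its range, with 11.6 to 28.6 FPKM in the early alveolar and 11.5 to 26.6 FPKM in the late alveolar libraries. The last 2 steps had log2 differences of -0.18 (SE 0.20) and -0.03 (SE 0.20). None of the 14 gaps between neighbouring ages in the order of levels was wider than the SD between animals of an age.

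Rarg, the receptor best known from epidermis and cartilage, lies on chromosome 15 (102234938 to 102257522, minus strand). Its levels were 5.67 and 8.77 FPKM at E16.5 and 10.9 and 18.3 FPKM at E18.5. The postnatal saccular libraries ranged from 16.7 to 32.5 FPKM with a median of 22.7, and 6 of the 8 lay above every prenatal library. The mean rose 2.10-fold, from 10.9 ± 5.38 FPKM (SD, n = 4) to 22.9 ± 5.40 FPKM (SD, n = 8), a log2 difference of 1.078 (SE 0.26, adjusted p = 0.00427). With E18.5 as the only prenatal age the difference was 0.62 and the adjusted p 0.267, and E16.5 was the only age set apart from its neighbour in the order of levels by more than the SD between animals. Rarg then ranged from 11.7 to 27.7 FPKM in the early alveolar and from 17.99 to 44.6 FPKM in the late alveolar libraries. It stood highest at P19, with 44.6 and 34.9 FPKM, in libraries that are both rich in zeros. The late group was not called against the early one (log2 difference 0.28, SE 0.20, adjusted p = 0.433).

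Rarb, the receptor that retinoic acid itself induces in many cells, lies on chromosome 14 (16430839 to 17082331, minus strand). Its levels were 18.6 and 28.3 FPKM at E16.5 and 5.79 and 13.6 FPKM at E18.5. The postnatal saccular libraries ranged from 6.27 to 12.0 FPKM with a median of 6.93. E16.5 stood above every other age in its mean, while the E18.5 libraries stood just below and just above the postnatal saccular range. Between E16.5 and E18.5 the log2 difference was -1.27 (SE 0.47, adjusted p = 0.145), and between the prenatal and the postnatal saccular group -0.81 (SE 0.41, adjusted p = 0.192).

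The early alveolar libraries of Rarb ranged from 3.53 to 16.8 FPKM with a median of 8.91. P5 was highest there, with 15.0 and 16.8 FPKM, and P7 lowest, with 3.53 and 5.33 FPKM. The late alveolar libraries ranged from 1.04 to 10.5 FPKM with a median of 4.13, and 4 of the 9 lay below every early alveolar library, those of P13.5 and P19. P28, the single oldest library, held 10.5 FPKM, the highest of its group. The mean fell from 10.2 ± 5.31 FPKM (SD, n = 8) to 4.12 ± 2.97 FPKM (SD, n = 9), a log2 difference of -1.17 (SE 0.33, adjusted p = 0.0177). Without the libraries of P10 pup a and both P19 pups, which are rich in zeros, Rarb was not called, with a log2 difference of -1.005 (adjusted p = 0.0613). It was not called either in a fit of these 2 groups alone, with -1.17 (0.0515), or when P10 was moved to the late group, with -1.02 (0.0752). Exons of Rarb overlap those of Top2b, which lies on the opposite strand, and of the antisense gene Gm48162, and whether strand was used in the authors' quantification is not given in the sources used here. Top2b, a DNA topoisomerase, had 45.4 ± 9.13 FPKM (SD, n = 8) in the early and 38.6 ± 6.12 FPKM (SD, n = 9) in the late alveolar group. Its prenatal level was 60.9 ± 4.82 FPKM (SD, n = 4), also its highest.

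On group means, the makeup of the receptor pool shifted from Rarb to Rarg and Rara between the prenatal and the late alveolar group. Rarb averaged 43.6% ± 18.1 (SD, n = 4) of the summed receptor FPKM in the prenatal group, 15.4% ± 3.05 (n = 8) in the postnatal saccular group, 19.3% ± 7.56 (n = 8) in the early alveolar group and 9.11% ± 7.15 (n = 9) in the late alveolar group. Every prenatal library held a larger share of Rarb, at least 25.0%, than any postnatal saccular library, at most 18.1%. The separation did not last, as the share was 24.2% and 24.8% at P4 and 28.6% and 25.2% at P5. Both P5 libraries thus lay above the lowest prenatal library. The P7 and P10 libraries held between 8.07% and 18.9%, and P28 held 23.3%. Rarg averaged 31.5% ± 15.6 (SD, n = 4) prenatally and 54.6% ± 8.30 (n = 9) in the late alveolar group. Rara averaged 24.9% ± 4.21 (SD, n = 4) and 36.3% ± 6.08 (n = 9) in the same groups. Without the 3 libraries rich in zeros the late alveolar mean of Rarg was 51.5% ± 5.98 (SD, n = 7). The most abundant receptor transcript was Rarb in both E16.5 libraries and Rarg in both of E18.5. It was Rara in 4 and Rarg in 4 of the 8 postnatal saccular libraries, Rarg in 7 of the 8 early alveolar libraries and Rarg in 8 of the 9 late alveolar libraries. No windows of 50 bases are shared between the transcripts of the 3 receptors. The shares were not tested. The E16.5 libraries, with Rarb shares of 62.3% and 55.5%, are those with heart muscle sums of 995 and 2068 FPKM. Over the 29 libraries Rarb correlated with the heart muscle sum at r = 0.48 and with the endothelial sum at r = -0.60 on log2 scales, and the part of these cell types in the levels of Rarb was not tested.

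**Figure D3:**
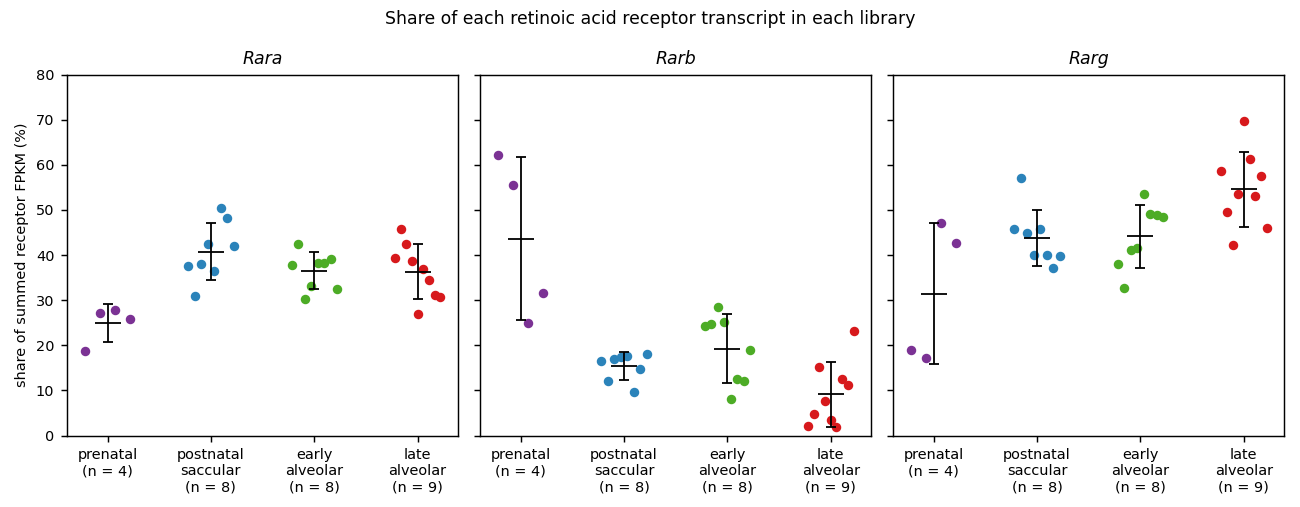
Share of each receptor in the summed FPKM of Rara, Rarb and Rarg (vertical axes, percent) in the 4 groups, with 1 point per library, a bar at the mean and whiskers of 1 SD. The mean share of Rarb goes from 43.6% in the prenatal to 9.11% in the late alveolar group, while that of Rarg goes from 31.5% to 54.6%.

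Of the genes that remove retinoic acid and its precursors, Cyp26b1 and Dhrs3 rose from the prenatal to the postnatal saccular group, and Lrat rose in the late alveolar group. Cyp26b1, which breaks down retinoic acid, lies on chromosome 6 (84571414 to 84593908, minus strand). Its prenatal levels were 1.66 and 2.75 FPKM at E16.5 and 1.83 and 2.18 FPKM at E18.5. The postnatal saccular libraries ranged from 4.89 to 11.5 FPKM with a median of 7.54, and all 8 lay above all 4 prenatal libraries. The mean rose 3.82-fold, from 2.10 ± 0.48 FPKM (SD, n = 4) to 8.04 ± 2.00 FPKM (SD, n = 8), a log2 difference of 1.52 (SE 0.37, adjusted p = 0.00531). Against E18.5 alone the difference was 1.56 with an adjusted p of 0.0547. Animals of the same age then differed widely, as at P10, with 4.05 and 13.1 FPKM, and at P19, with 6.31 and 13.6 FPKM. The early alveolar libraries ranged from 2.51 to 13.1 FPKM and the late alveolar from 1.51 to 13.6 FPKM, and neither step was called. The other family members, Cyp26a1 and Cyp26c1, did not pass the filter on low values.

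Dhrs3, the retinal reductase, lies on chromosome 4 (144892534 to 144928209, plus strand) and had the second highest mean FPKM of the 9 genes in each group. Its levels were 11.6 and 15.8 FPKM at E16.5 and 35.2 and 28.6 FPKM at E18.5. Both E18.5 libraries lay well above both E16.5 libraries, a log2 difference of 1.17 (SE 0.32, adjusted p = 0.0426). The call was lost without any 1 of these 4 libraries and without some libraries of other ages, and without E16.5 embryo 9 the difference was 0.96 (adjusted p = 0.228). The postnatal saccular libraries ranged from 32.5 to 52.5 FPKM with a median of 42.7. The mean rose 1.89-fold from the prenatal group, from 22.8 ± 10.96 FPKM (SD, n = 4) to 43.0 ± 8.02 FPKM (SD, n = 8), a log2 difference of 0.99 (SE 0.23, adjusted p = 0.00389). Against E18.5 alone the difference was 0.41 with an adjusted p of 0.404.

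Later levels of Dhrs3 were 25.3 to 56.8 FPKM in the early alveolar and 33.6 to 69.8 FPKM in the late alveolar libraries. P19, whose libraries are both rich in zeros, stood highest, with 69.8 and 44.5 FPKM, and P5 and P7 lowest among the postnatal ages. The steps to the early and to the late alveolar group had log2 differences of -0.37 (SE 0.19, adjusted p = 0.415) and 0.41 (SE 0.19, adjusted p = 0.160). Dhrs3 varied with the summed FPKM of 7 type 1 cell markers (r = 0.74 over 29 libraries on log2 scales) and of 8 endothelial markers (r = 0.72). The type 1 sum was 160 and 140 FPKM at E16.5, 914 and 933 at E18.5, and between 942 and 1664 in the postnatal saccular libraries. The endothelial sum was 315 and 375 at E16.5, 758 and 695 at E18.5, and between 700.3 and 1118 in the postnatal saccular libraries. With the heart muscle sum Dhrs3 correlated at r = -0.51. The heart muscle sum was 995 and 2068 at E16.5, 31.6 and 102 at E18.5, and between 20.7 and 388 in the postnatal saccular libraries. Rarg varied with the endothelial sum as well (r = 0.69) and Cyp26b1 with the sum of 5 ciliated cell markers (r = 0.68). That sum was 24.2 to 62.5 FPKM in the prenatal and 80.5 to 189 FPKM in the postnatal saccular libraries. Tppp3 carried most of that difference, with means of 25.3 ± 13.4 FPKM (SD, n = 4) and 116 ± 37.2 FPKM (n = 8). The means of Foxj1 (8.88 to 12.7 FPKM) and Ccdc153 (1.94 to 4.10 FPKM) rose as well. Those of Sntn (5.01 to 1.39 FPKM) and Dnah5 (3.85 to 3.30 FPKM) fell. The part of these cell types in the differences of Rarg, Cyp26b1 and Dhrs3 was not tested.

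Lrat, which esterifies retinol, lies on chromosome 3 (82892582 to 82903974, minus strand). Up to P7 no library exceeded 1.50 FPKM. The early alveolar libraries held 1.42 and 1.22 FPKM at P4, 0.64 and 1.17 at P5, 0 and 0.97 at P7, and 0.80 and 4.15 at P10. The late alveolar libraries ranged from 1.28 to 28.7 FPKM with a median of 4.54, and 5 of the 9 lay above every early alveolar library. P28 held 28.7 FPKM and P19 held 9.73 and 17.8, while P23, between them, held 1.28 and 4.54. Both P19 libraries are rich in zeros. The log2 difference was 1.69 (SE 0.39, adjusted p = 0.00411), and the call held in each of the 40 alternatives, with adjusted p between 5.7e-04 and 0.0320. The share of tested genes with a higher mean went from 86.5% in the early to 46.7% in the late alveolar group. The 4 lipofibroblast markers with values summed to 293 to 536 FPKM in the early and 192 to 425 FPKM in the late alveolar libraries. The members differed in direction: the mean of Tcf21 went from 275 to 179 FPKM and that of Fgf10 from 10.3 to 6.68 FPKM, while G0s2 went from 59.1 to 90.4 FPKM and Lpl from 10.8 to 16.2 FPKM. The part of these cells in the level of Lrat was not tested.

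**Figure D4:**
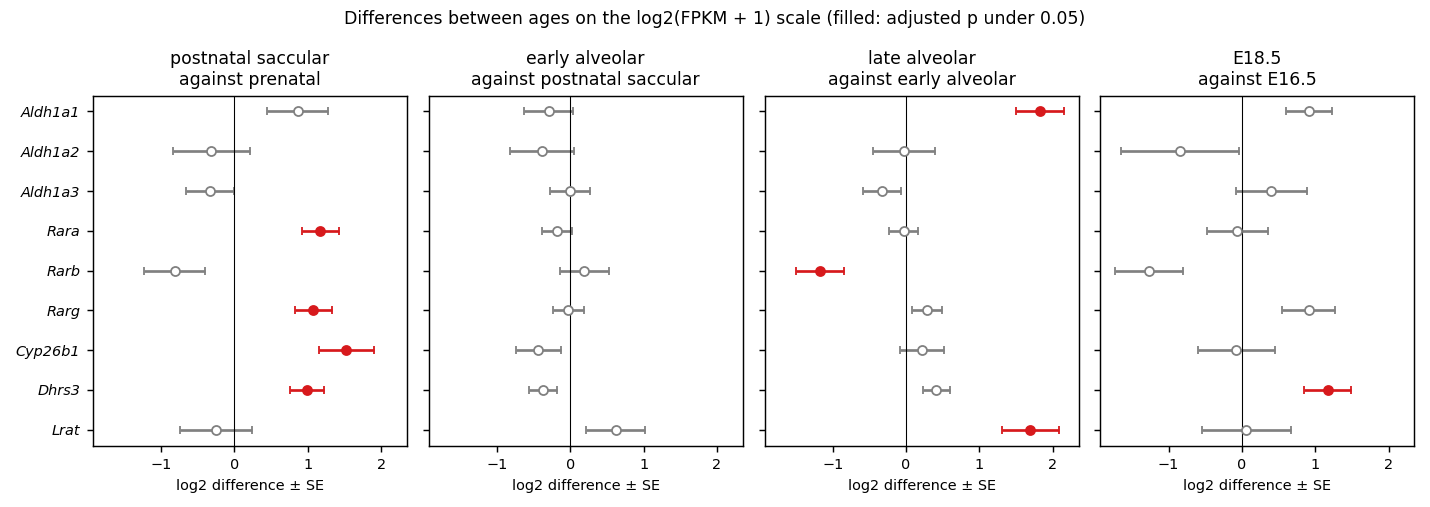
Log2 differences with their SE (horizontal axes) of the 9 genes in 4 comparisons, from limma fits of log2(FPKM + 1). Filled points passed an adjusted p of 0.05: Rara, Rarg, Cyp26b1 and Dhrs3 in the first panel, none in the second, Aldh1a1, Rarb and Lrat in the third, and Dhrs3 in the fourth.

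Counted over the 9 genes, 4 were called higher after birth, in the postnatal saccular group, Rara, Rarg, Cyp26b1 and Dhrs3, against 9.11% of all 14616 genes tested. None was called lower by limma, against 6.81% of all genes. None was lower at an unadjusted limma p under 0.05, a threshold at which the share of all genes was not counted. With E18.5 as the only prenatal age, 1 of these 4 remained, Rara, and the share of all genes called in that fit was not counted. Between the postnatal saccular and the early alveolar group none of the 9 was called in limma. None had an unadjusted p under 0.05 either, where the share of all genes was again not counted. Few genes were called at this step at all, 0.527% higher and 0.937% lower. Between the early and the late alveolar group 2 of the 9 were called higher, Aldh1a1 and Lrat, against 3.89% of all genes, and 1 lower, Rarb, against 7.47%.

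Over all ages, a spline of 3 degrees of freedom called 6 of the 9 genes, against 30.7% of all genes. These were Aldh1a1 (adjusted p = 1.5e-05), Lrat (2.9e-05), Rarg (0.00201), Dhrs3 (0.00791), Rarb (0.0130) and Rara (0.0174). The fitted course of Aldh1a1 spanned 3.70 and that of Lrat 3.32 on the log2 scale. With postnatal libraries alone 3 of the 6 remained, Aldh1a1, Rarb and Lrat, and the share of all genes called was not counted there. Between E16.5 and E18.5, 1 of the 9 was called higher, Dhrs3, against 2.52% of all genes, and none lower, against 2%. At an unadjusted limma p under 0.05, 3 were higher and 1, Rarb, was lower, and the share of all genes at that threshold was not counted.

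Some of the 9 genes shared their course over the 15 ages. The strongest likeness of age means was between Rarg and Dhrs3 (r = 0.82), then between Rara and Rarg (0.71) and between Aldh1a1 and Lrat (0.68). Rarb ran opposite to Rarg (r = -0.75) and to Dhrs3 (-0.62). These correlations are over 15 age means from the same libraries and carry no test. Among the 11610 other genes compared, the courses most like Aldh1a1 were those of Por (r = 0.95), Itih4 (0.94) and Tapbpl (0.94), and those most like Rarb were H3c4 (0.92), Ppp2r5c (0.90) and Pop1 (0.89). Rarg was nearest to Sox17 (r = 0.94), Ushbp1 (0.94) and Nbl1 (0.93), and the genes near Rara included Prr12 (0.92) and Hivep3 (0.92). Dhrs3 was nearest to Hip1r (r = 0.93), Map6 (0.93) and Neat1 (0.92), and Cyp26b1 to Gse1 (0.89), Pdgfa (0.86) and Samd10 (0.82). Lrat was nearest to Skap1 (r = 0.90), Tax1bp1 (0.90) and Grb14 (0.88). Aldh1a2 was nearest to Nbn, Fam98b and Rspo1, and Aldh1a3 to Nek3, Gcfc2 and Phf13, with a highest r of 0.89 and 0.85. Over the 29 libraries r was 0.44, 0.63 and 0.43 for the genes near Aldh1a2, and 0.73, 0.56 and 0.67 for those near Aldh1a3. For Aldh1a2 the SD between animals of an age, 0.85, exceeded that of the age means, 0.68, so its likeness over age means is uncertain.

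The wider pathway was described through 57 listed genes, of which 56 had values and 43 were tested. In the postnatal saccular against the prenatal group 5 were higher and 4 lower, with a median log2 difference of 0.06, where the 9 genes had a median of 0.86 and all tested genes one of -0.004. Among the genes of retinol and retinal interconversion, Rdh10, which supplies retinal, rose from a mean of 1.20 to 6.84 FPKM (log2 difference 1.74, adjusted p = 0.00852). Adh5, a broadly expressed alcohol dehydrogenase, fell from 48.6 to 19.1 FPKM. Among the other aldehyde oxidising genes, Aldh2, the mitochondrial enzyme, rose from 47.1 to 76.9 FPKM (0.79), and Aox3, an aldehyde oxidase, fell from 34.8 to 5.67 FPKM (-2.57, adjusted p = 5.1e-04), beside Aldh1a7. The coactivator Ncoa3 rose from 12.3 to 17.2 FPKM (0.45). Of the genes induced by retinoic acid in other settings, Rai14 rose (0.58) and Rarres1 fell (-1.16, adjusted p = 0.0206), of 13 tested. No gene of uptake, transport and storage, no binding protein and neither tested RXR was called.

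At the step to the early alveolar group 1 of the 43 was called, Rai14, which fell by 0.64 on the log2 scale (adjusted p = 0.0263). Of all genes 0.937% were called lower at that step. In the late against the early alveolar group 3 of the 43 were higher and 5 lower, against 3.89% and 7.47% of all genes. Tgm2, a transglutaminase that retinoic acid induces in several cell types, rose from 28.7 to 75.5 FPKM (log2 difference 1.36, adjusted p = 9.3e-07). Aldh2 rose from 97.6 to 150 FPKM (0.62) and Ncoa3 from 18.4 to 27.0 FPKM (0.52). Adh1, which can oxidise retinol, fell from 109 to 38.7 FPKM (-1.29, adjusted p = 0.00724), and Adh5 (-0.68), Rdh13 (-0.999) and Aox3 (-2.004, adjusted p = 8.2e-04) fell with it. Hoxb5, a homeobox gene of lung mesenchyme, fell from 17.1 to 5.98 FPKM (-1.48, adjusted p = 0.0217). The median log2 difference of the 43 was -0.07, that of the 9 genes 0.21 and that of all tested genes -0.09. Of the 43 genes 16 varied with age, against 30.7% of all genes. None was called between E16.5 and E18.5 in limma, against 2.52% of all genes higher and 2% lower. There 3 had an unadjusted p under 0.05, a threshold at which the share of all genes was not counted.

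Several pathway genes were well expressed in all groups, with a mean of at least 10 FPKM in each. Besides those named, they were the fatty acid binding protein Fabp5, the receptor partner Rxra, the cofactors Ncor1, Ncoa1, Ncoa2, Nrip1 and Ep300, the enzymes Dhrs4 and Lpl, and Hoxa5, Meis1, Meis2, Nr2f2 and Rarres2. Rxra, with which the RARs pair on DNA, had group means between 13.9 and 19.2 FPKM. Ncor1, the corepressor, was the most abundant of the cofactors, with group means between 89.6 and 103 FPKM.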

How the data were processed

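The authors depleted total RNA of laser-captured septa of ribosomal RNA and prepared stranded libraries. The submitters' notes name mm10, STAR 2.5.1 and Cufflinks 2.2.1, and the authors deposited FPKM, with settings not given in the sources used here. Depth is unknown, and precision is given by the spread between libraries.

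The matrix held 24486 lines for 22779 gene IDs. Of these, 1226 stood on several lines, and of these the one with the highest mean over libraries was kept. The FPKM were taken as log2(FPKM + 1), and genes reaching 1 FPKM in 4 or more libraries were fitted by empirical Bayes with a trend (limma 3.58.1, R 4.3.3), with 4 groups, 15 age groups for E18.5 against E16.5, or a spline on the log2 of the age from conception in days, birth being day 19. The fit was tested on simulated data. Python 3.11.15, pandas 2.3.3, numpy 2.4.6 and matplotlib 3.10.9 served for the rest. Pup letters pair no animals across ages. Correlations used log2(FPKM + 1).

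The 9 genes, the pathway and marker lists and the tests were chosen with earlier results of these data known. All 9 genes are named in every comparison. Other pathway genes are named when called with a mean of at least 1 FPKM in the higher group, up to 4 a list and comparison, or at 10 FPKM in all 4 group means, and the 3 nearest genes of a member are those with the highest r among genes reaching 5 FPKM at an age.  The alternatives were another pseudocount, other filters and scalings, array weights, other groupings and libraries left out. Bco1 of the pathway list and Plin2, Adgre1 and Cfap126 of the marker lists were not analysed here. Some genes that these rules take are not reported here.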

Additional observations from a re-analysis of the deposited data

Results flagged for a closer look

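In 4 of the 36 groups of values examined, 9 genes in 4 groups each, the highest or lowest library stood apart from the rest of its group by a gap above the 95% critical value of Dixon's test. Chance alone gives about 1 in 20 when values are normally distributed. The test was made on FPKM, whose distribution was not tested, so that rate may not hold here. Rarg was 11.7 FPKM in P4 pup a, below the other 7 early alveolar libraries, and the gap to its neighbour was 0.573 of the range. P10 pup f stood above the other early alveolar libraries in both Cyp26b1, at 13.1 FPKM, and Lrat, at 4.15 FPKM. Dhrs3 was 69.8 FPKM in P19 pup d, above the other 8 late alveolar libraries. P19 pup d is among the 3 libraries in which many well expressed genes are listed at 0. Whether that bears on its Dhrs3 level was not tested.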

How the results depend on the processing

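The share of all genes called under each alternative was not counted. With E18.5 as the only prenatal age, 1 of the 9 genes in place of 4 was called higher in the postnatal saccular group. The count called lower in the late alveolar group went from 1 to 0 without the 3 libraries rich in zeros, in a fit of only the 2 groups, or when the alveolar stage was divided after P7, with the log2 difference of Rarb between -1.17 and -1.005 in these fits. The age course called 3 genes in place of 6 with postnatal libraries alone. The 1 gene higher at E18.5 than at E16.5, Dhrs3, became 0 with no filter on low values, and leaving out 1 library at a time, which was added once the data had been seen, gave between 0 and 1. It was lost without either E16.5 embryo, either E18.5 embryo, P1 pup d or e, P2.5 pup h or i, P5 pup b, or P23 pup e or f. The age course of Dhrs3 was lost without either E16.5 embryo and that of Rara without E16.5 embryo 9 (adjusted p = 0.168). With array quality weights Dhrs3 passed in the late against the early alveolar group (0.49, adjusted p = 0.0411). Single genes under single alternatives gave 24 values that lost a call and 2 that gained one, and no call changed direction. The unchanged values numbered 1731, which include the mean transcript shares without the 3 libraries rich in zeros. Those shares have no threshold and counted as unchanged when they moved by less than 1 SD. The calls of Aldh1a1 and Lrat in the late alveolar group and of Rara after birth were kept in all 40 alternatives. No paired analysis was possible because the pup letters name different animals at each age. Depth is unknown, so levels near 0, as of Aldh1a3, have no stated precision.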
